A study of Mus musculus with 8 samples.

Results

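The matrix metalloproteinase genes Mmp2, Mmp3, Mmp9, Mmp12, Mmp13, Mmp14 and Mmp19 and the inhibitor genes Timp1, Timp2 and Timp3 were followed in macrophages sorted from mouse breast tumours. All probes whose accession belongs to one of these 10 genes were taken, which gave 13 of the 41174 probes of the array, and 1 probe per gene entered the test among 20879 genes. All 10 genes passed the filter on dim probes. The compared cells came from C57BL/6 hosts that were labelled ATF3 knockout (KO TAM, 4 samples) or wild type (WT TAM, 4 samples). ATF3 is a transcription factor induced by stress. The hosts of each group carried tumours grown for about 21 days from PyMT cells, a mouse breast cancer line carrying polyoma middle T, implanted in the breast tissue. The labels describe the hosts as knockout and the implanted line as the same in each group, and name no cell type in which the deletion was driven. Cells positive for F4/80, the product of Adgre1, and for CD45, the product of Ptprc, were sorted, and the RNA of each sample was read on its own 1-colour array. Whether each sample came from a mouse of its own is not stated, so the spread behind each p-value may be technical.

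Matrix metalloproteinases are zinc-dependent enzymes that cut collagens, elastin, laminin and other proteins around cells. Most are secreted as inactive proenzymes, some are anchored in the membrane, and the TIMP proteins block the active enzymes by binding their catalytic site. In tumours, macrophages, fibroblasts, neutrophils and cancer cells all can supply them, and they take part in invasion, blood vessel growth and the release of bound growth factors.

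Each value below is the log2 of the scanner's processed signal over the 75th percentile of its array, so that 0 means a signal equal to that percentile. Values of different probes were not set against each other. The 75th percentile lay between 619 and 926 intensity units, and between 63.7% and 68.0% of spots exceeded background clearly by the scanner's flag. The targeted gene Atf3, read by 1 probe, measured 5.51, 4.86, 4.96 and 4.88 in KO TAM samples 1 to 4, against 4.92, 4.99, 4.79 and 4.51 in WT TAM samples 1 to 4. The libraries labelled KO thus gave no lower Atf3 signal, with means of 5.05 ± 0.31 in KO TAM and 4.80 ± 0.21 in WT TAM (SD, n = 4 each). The position of the probe relative to the deletion is not given by the labels, so the probe cannot check them, and every direction below is between libraries labelled KO TAM and WT TAM. The sort markers were bright, with Adgre1 at 4.07 ± 0.54 in KO TAM and 4.14 ± 0.60 in WT TAM and Ptprc at 4.42 ± 0.55 in KO TAM and 4.52 ± 0.54 in WT TAM (SD, n = 4 each). Markers of tumour epithelium were present too, with Krt8 at 3.52 ± 1.50 in KO TAM and 3.64 ± 1.46 in WT TAM and Epcam at 1.95 ± 1.50 in KO TAM and 1.84 ± 1.44 in WT TAM. On both slides the KO TAM arrays lay at positions 3 and 4 and the WT TAM arrays at positions 1 and 2, so position and genotype cannot be told apart.

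None of the 10 genes passed the test between the genotypes in the limma fit over 20879 genes. The adjusted p was 0.9999 for each of them, 0 of 10 had an unadjusted p under 0.05, and the KO TAM and WT TAM values overlapped for all 10. Blocked by replicate number, the fit gave members a limma adjusted p of 0.70 to 0.97, and again 0 of 10 had an unadjusted p under 0.05, against 7.57% of all genes. Of all genes tested in the fit without the block, 0% passed at an adjusted p under 0.05, 3.36% had an unadjusted p under 0.05, and 2.13% had groups that did not overlap. In KO TAM 6 members had the higher mean and 4 the lower, with a median log2 difference of 0.06, against −0.01 over all genes tested. Without WT TAM sample 1, 7 members had the lower mean in KO TAM. With normexp, relative to the median of all genes, the differences of Mmp14 (0.13) and Timp2 (0.06) were positive and that of Mmp19 (−0.42) negative.

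**Figure D1:**
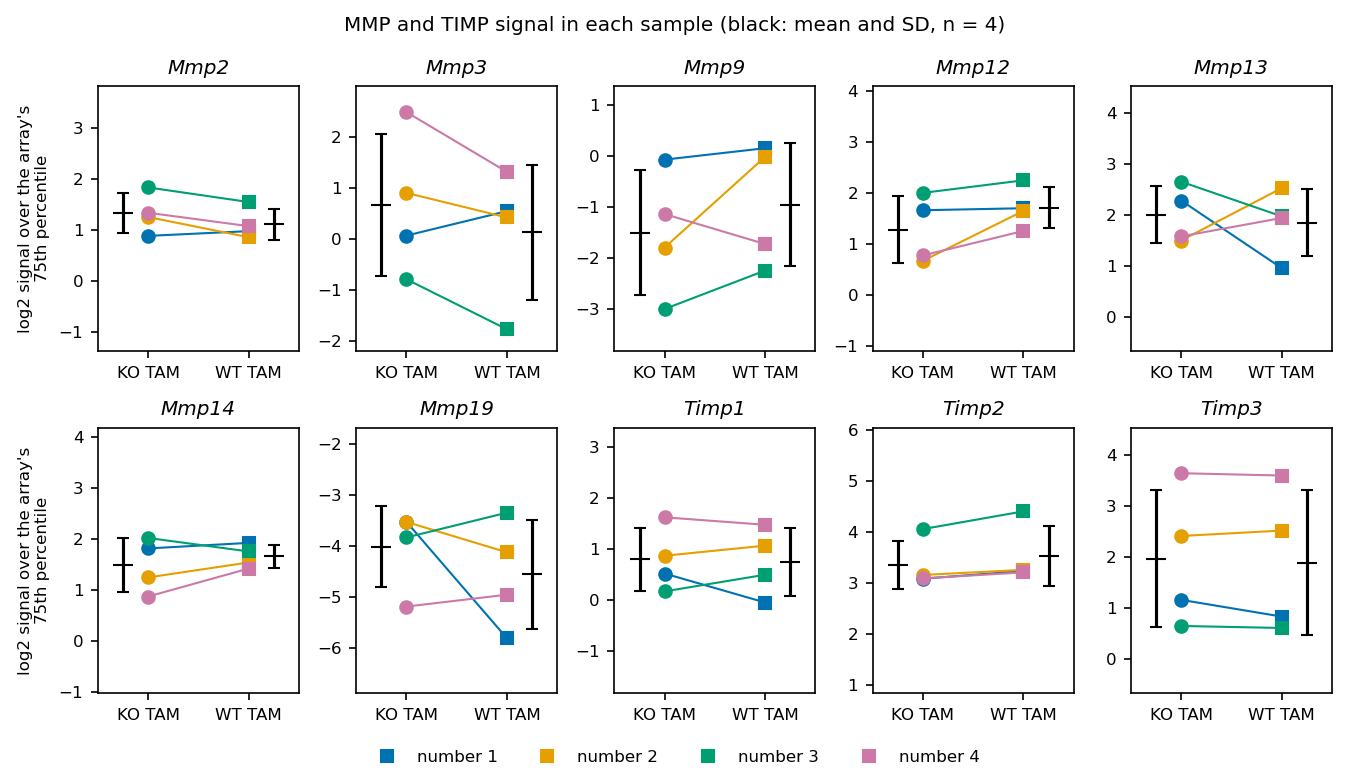
Log2 signal over the array's 75th percentile (vertical axis) for each gene in KO TAM (circles, left) and WT TAM (squares, right), with a line joining samples of the same number and black marks for the mean and SD of 4 samples. Each panel spans the same height on the log2 scale, and the lines are nearly flat and widely spaced for Timp3 but cross for Mmp13.

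The gelatinases Mmp2 and Mmp9 cut denatured collagen and the collagen of basement membranes. Mmp2 measured 0.89, 1.26, 1.84 and 1.35 in KO TAM samples 1 to 4, against 0.99, 0.87, 1.56 and 1.08 in WT TAM samples 1 to 4. The samples numbered 3 were the highest of both genotypes, and the other values overlapped. The means were 1.34 ± 0.39 in KO TAM and 1.12 ± 0.30 in WT TAM (SD, n = 4 each), and the 95% interval of the difference of 0.21 ran from −0.37 to 0.80. The difference was 0.044 without KO TAM sample 3, 0.13 without WT TAM sample 2, and 0.36 without KO TAM sample 1 or WT TAM sample 3. Mmp9 measured −0.07, −1.80, −3.00 and −1.14 in KO TAM samples 1 to 4, against 0.15, −0.02, −2.25 and −1.73 in WT TAM samples 1 to 4. Samples numbered 1 were high and samples numbered 3 low in both genotypes, while the samples numbered 2 stood apart from each other by −1.78 (KO TAM minus WT TAM). The mean was −1.50 ± 1.22 in KO TAM and −0.96 ± 1.21 in WT TAM, with an interval for the difference of −0.54 that ran from −2.31 to 1.22. Its size rested on single samples. It was −0.043 without KO TAM sample 3, −0.17 without WT TAM sample 1 and −0.23 without WT TAM sample 2, and −1.02 without KO TAM sample 1 and −0.97 without WT TAM sample 3.

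Mmp9 was also read by a probe printed in 10 spots, which shows how well a single array measured it. The SD over the spots of an array was 0.044 to 0.13 in KO TAM arrays and 0.054 to 0.13 in WT TAM arrays. The means of these spots were −1.18, −3.82, −4.38 and −2.12 in KO TAM samples 1 to 4, against −1.29, −1.62, −3.61 and −3.49 in WT TAM samples 1 to 4. The samples spread over a far wider range than the spots of an array, but some neighbours, such as WT TAM samples 3 and 4, lay no further apart than that spread, which covers the reading of an array and not the sample's preparation. The values followed those of the first probe (Pearson r = 0.97 over 8 arrays). The difference between genotypes by this probe was −0.37, and within slides the first probe gave −1.002 on slide 1 and −0.083 on slide 2. By the probe printed in 10 spots, the KO TAM mean was the lower one on slide 1 but the higher one on slide 2.

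Mmp3, Mmp12 and Mmp13 are neighbours: RefSeq (GRCm38.p6) places Mmp13, Mmp12, Mmp1b and Mmp3 next to each other on chromosome 9. Mmp3 is a stromelysin that cuts many matrix proteins and activates other proenzymes, Mmp12 is the elastase named after macrophages, and Mmp13 is the main fibrillar collagenase of mice. The stretch before a start site of each is shown because all hold a match to the AP-1 motif, the DNA element bound by FOS and JUN proteins, of which JUN proteins are known partners of ATF3. The 120 bases up to the base before the start are printed 5′ to 3′ from RefSeq, GRCm38.p6, all on the plus strand, with motif matches in capitals.
Mmp13, chr9:7272394-7272513: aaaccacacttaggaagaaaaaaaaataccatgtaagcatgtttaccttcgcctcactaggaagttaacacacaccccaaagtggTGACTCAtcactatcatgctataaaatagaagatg
Mmp12, chr9:7347254-7347373: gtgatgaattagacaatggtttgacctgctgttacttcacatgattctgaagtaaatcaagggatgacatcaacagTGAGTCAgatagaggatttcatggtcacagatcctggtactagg
Mmp3, chr9:7445702-7445821: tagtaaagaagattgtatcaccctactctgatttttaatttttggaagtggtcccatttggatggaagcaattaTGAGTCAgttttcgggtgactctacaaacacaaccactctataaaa
The match begins 35 bases before the start for Mmp13 (base −35), at base −44 for Mmp12 and at base −46 for Mmp3. Mmp12 has another listed start whose window holds no match. TGAGTCA or its other strand TGACTCA was found in the 250 bases before 4.46% of 32851 starts, and at 3 of the 8 starts listed for 7 of the members. The cAMP response element TGACGTCA was found before 1.55% of starts and at 0 of those 8.

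These neighbours did not share a pattern across samples. Mmp3 measured 0.06, 0.90, −0.79 and 2.48 in KO TAM samples 1 to 4, against 0.54, 0.42, −1.77 and 1.31 in WT TAM samples 1 to 4. The samples numbered 4 were the highest and those numbered 3 the lowest of both genotypes, a 19.1-fold range between KO TAM sample 4 and WT TAM sample 3 that was the widest of the 10 genes. The mean was 0.66 ± 1.40 in KO TAM and 0.12 ± 1.33 in WT TAM (SD, n = 4 each), a difference of 0.54 with an interval from −1.43 to 2.51. Its sign rested on single samples: the difference was −0.094 without WT TAM sample 3 and −0.068 without KO TAM sample 4, and within slides it was 0.0011 on slide 1 and 1.08 on slide 2.

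Mmp12 measured 1.66, 0.67, 2.00 and 0.77 in KO TAM samples 1 to 4, against 1.70, 1.65, 2.24 and 1.25 in WT TAM samples 1 to 4. Here the samples numbered 3 were the highest, and KO TAM samples 2 and 4 were lower than all WT TAM samples. The mean was 1.27 ± 0.66 in KO TAM and 1.71 ± 0.41 in WT TAM, a difference of −0.44 with an interval from −1.28 to 0.40. It stayed negative but moved to −0.23 without KO TAM sample 2, −0.26 without WT TAM sample 3, −0.27 without KO TAM sample 4 and −0.68 without KO TAM sample 3. With normexp background correction it was −0.20, or −0.055 relative to the median of all genes. In 4 of 4 same-numbered pairs the KO TAM value was the lower one, by −0.04, −0.98, −0.25 and −0.48, a pattern shared with Timp2 alone among the members and with 9.69% of all genes tested. The opposite pattern, KO TAM higher in 4 of 4 pairs, was seen for 0 of 10 members and 7.39% of all genes. Over 8 arrays Mmp12 and Mmp3 ran opposite ways (Pearson r = −0.87).

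Mmp13 measured 2.28, 1.50, 2.65 and 1.58 in KO TAM samples 1 to 4, against 0.96, 2.53, 1.97 and 1.94 in WT TAM samples 1 to 4. No number was high or low in both genotypes, and WT TAM sample 1 was the lowest of all. The mean was 2.00 ± 0.56 in KO TAM and 1.85 ± 0.65 in WT TAM (SD, n = 4 each), a difference of 0.15 with an interval from −0.77 to 1.07, which became −0.14 without WT TAM sample 1 and −0.062 without KO TAM sample 3.

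Mmp14 encodes a membrane-anchored collagenase that activates the Mmp2 proenzyme at the cell surface with the help of the Timp2 protein. It measured 1.82, 1.25, 2.02 and 0.87 in KO TAM samples 1 to 4, against 1.92, 1.54, 1.76 and 1.42 in WT TAM samples 1 to 4. Samples numbered 4 were the lowest of both genotypes, and the KO TAM values spread on either side of the WT TAM values. Its mean was 1.49 ± 0.52 in KO TAM and 1.66 ± 0.22 in WT TAM, a difference of −0.17 with an interval from −0.83 to 0.48, and 0.034 without KO TAM sample 4. Another Mmp14 probe gave −0.23 and followed the first with r = 0.89 over 8 arrays.

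Mmp19, a secreted enzyme found in many tissues, was read close to background. It measured −3.53, −3.53, −3.84 and −5.19 in KO TAM samples 1 to 4, against −5.81, −4.13, −3.35 and −4.96 in WT TAM samples 1 to 4, and WT TAM sample 1 was not well above background. The groups overlapped widely. The means were −4.02 ± 0.79 in KO TAM and −4.56 ± 1.06 in WT TAM (SD, n = 4 each), and the difference of 0.54 had an interval from −0.83 to 1.91. Its sign turned with the processing, to −0.57 with normexp background correction, which is −0.42 relative to the median shift of all genes in that setting. It was also −0.36 on slide 2 alone, and it was 0.12 without WT TAM sample 1, 0.93 without KO TAM sample 4 and 0.94 without WT TAM sample 3.

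**Figure D2:**
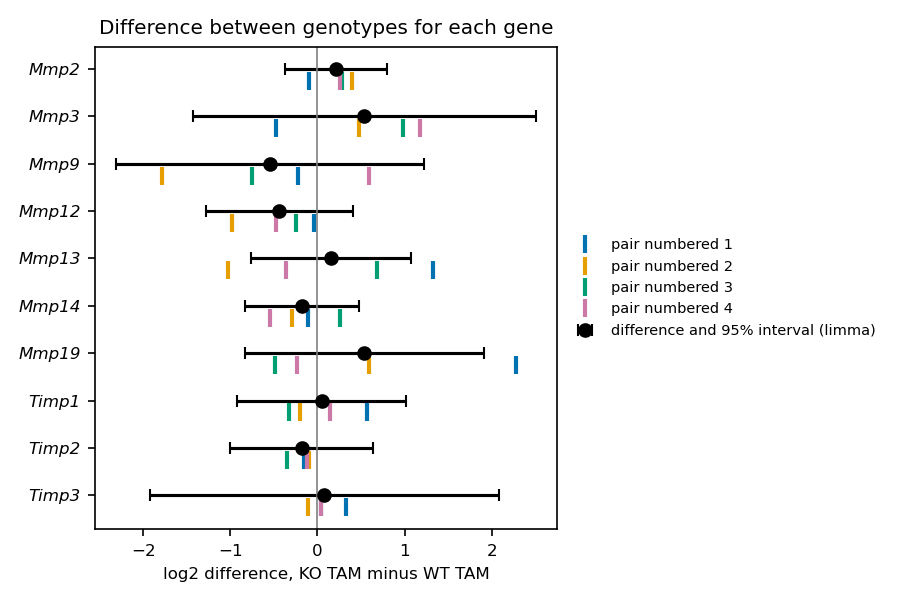
Log2 difference, KO TAM minus WT TAM (horizontal axis), for each gene, with the limma estimate and its 95% interval as a black point and bar and the 4 same-numbered pairs as coloured ticks below. All 10 intervals cross 0, and the ticks of Timp3 and Timp2 lie close together within wide intervals.

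The inhibitor genes showed the closest agreement between samples of the same number. Timp1, an inducible secreted inhibitor, measured 0.51, 0.86, 0.16 and 1.62 in KO TAM samples 1 to 4, against −0.05, 1.06, 0.49 and 1.47 in WT TAM samples 1 to 4. Samples numbered 4 were the highest of both genotypes, followed by those numbered 2. The mean was 0.79 ± 0.62 in KO TAM and 0.74 ± 0.67 in WT TAM (SD, n = 4 each), and the difference of 0.05 had an interval from −0.92 to 1.02. It became −0.22 without WT TAM sample 1, −0.036 without WT TAM sample 3 and −0.23 without KO TAM sample 4. A further Timp1 probe gave 0.07 and followed the first with r = 0.99 over 8 arrays.

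Timp2, an inhibitor made by many cells at a steady level, measured 3.08, 3.16, 4.06 and 3.09 in KO TAM samples 1 to 4, against 3.24, 3.26, 4.40 and 3.21 in WT TAM samples 1 to 4. One number stood out in both genotypes: samples numbered 3 were high, and the remaining samples were nearly level. KO TAM was the lower of each same-numbered pair, by −0.15, −0.10, −0.35 and −0.12. The means were 3.35 ± 0.47 in KO TAM and 3.53 ± 0.59 in WT TAM, a difference of −0.18 with an interval from −1.001 to 0.64, and 0.11 without WT TAM sample 3.

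Timp3 encodes the inhibitor that binds to the matrix itself and also blocks ADAM proteases. It measured 1.16, 2.41, 0.64 and 3.64 in KO TAM samples 1 to 4, against 0.83, 2.51, 0.60 and 3.59 in WT TAM samples 1 to 4. The order of the numbers was the same in both genotypes, 4 above 2, then 1, then 3. Between the lowest and the highest sample the signal differed 8.18-fold, yet the same-numbered KO TAM and WT TAM samples differed by a median of 0.076 on the log2 scale, against 1.69 for the 12 KO TAM and WT TAM combinations of different number. The mean was 1.96 ± 1.34 in KO TAM and 1.88 ± 1.42 in WT TAM (SD, n = 4 each), and the difference of 0.08 had an interval from −1.92 to 2.08. The difference was negative without WT TAM sample 1 (−0.27), WT TAM sample 3 (−0.35), KO TAM sample 2 (−0.072) or KO TAM sample 4 (−0.48).

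Timp1 and Timp3 ran together over the 8 arrays (Pearson r = 0.95), and the stretches before their start sites are shown as a pair of genes on different chromosomes that moved together. Both are from RefSeq, GRCm38.p6, plus strand, with matches to the GC box GGGCGG, the element bound by SP1, in capitals.
Timp1, chrX:20870046-20870165: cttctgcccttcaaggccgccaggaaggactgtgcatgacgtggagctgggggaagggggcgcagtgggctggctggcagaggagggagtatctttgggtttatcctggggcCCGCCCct
Timp3, chr10:86300292-86300411: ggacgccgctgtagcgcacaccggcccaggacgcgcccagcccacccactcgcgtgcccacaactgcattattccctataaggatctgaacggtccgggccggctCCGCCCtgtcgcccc
The match, here on the other strand, begins at base −8 for Timp1 and at base −15 for Timp3. This motif was found before 32.7% of all starts and at 4 of the 8 member starts. The others belong to Timp2 and Mmp14, which ran opposite to Timp3 (r = −0.62 and −0.87). In the searched stretch, no AP-1 or cAMP response element match lay before Timp1 or Timp3.

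The share of variation that followed the replicate number was then measured for each gene. Of the total sum of squares over the 8 samples, the number took 99.5% for Timp3, 95.3% for Timp2, 90.2% for Timp1 and 88.0% for Mmp3. It took 80.8% for Mmp2, 78.2% for Mmp9, 77.4% for Mmp14 and 71.2% for Mmp12, and less for Mmp19 at 49.9% and Mmp13 at 24.6%. The median over all genes tested was 66.3%, and a share over 90% was reached by 3 of the 10 members and by 17% of all genes. Genotype took at most 17.5%, for Mmp12. The labels do not say what samples of the same number have in common. Slide 1 carried the samples numbered 1 and 2 and slide 2 those numbered 3 and 4. The slide's part of the sum of squares was 2.70% for Timp3, 29.0% for Timp2, 53.8% for Mmp9 and 50.3% for Mmp2.

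An F test of the number beside genotype, chosen after the values had been seen, called Timp3 alone among the members (limma adjusted p = 0.0157), where 7.23% of all genes were called. Timp2 and Mmp3 did not pass (limma adjusted p = 0.0506 and 0.0602). Timp3 also passed without KO TAM sample 2 or WT TAM sample 2, and it did not pass without KO TAM sample 1, 3 or 4 or WT TAM sample 1, 3 or 4, with a limma adjusted p of 0.0404 to 0.153 over the 8 left-out samples. In the 6 fits where it did not pass, 0% of all genes were called.

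**Figure D3:**
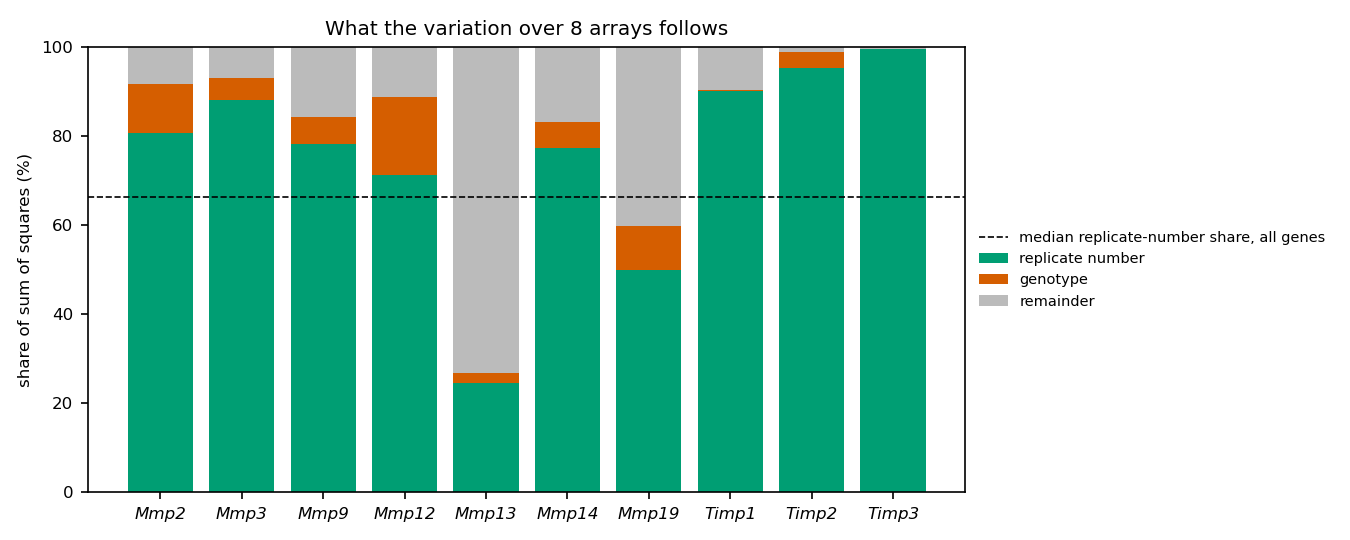
Share of the sum of squares over 8 arrays (vertical axis, percent) that followed the replicate number, the genotype or neither, for each gene, with the median number share of all genes as a dashed line. The number's share is 99.5% for Timp3 and 24.6% for Mmp13.

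The members fell into patterns that moved with the markers of different cells, given here as Pearson r over 8 arrays that share slides, numbers and scaling. In sorted bulk samples, fewer cells of a type and less RNA per cell cannot be told apart. The mean level of the 12 of 12 tumour epithelial markers that were tested ran from −0.93 to 2.28 in KO TAM and from −0.95 to 1.82 in WT TAM, and that of 13 of 14 macrophage markers from 3.41 to 4.62 in KO TAM and from 3.38 to 4.69 in WT TAM. The mean of 15 of 15 fibroblast markers ran from −1.25 to 0.90 in KO TAM and from −1.15 to 0.77 in WT TAM. The mean of 11 of 12 endothelial markers ran from −3.14 to −1.34 in KO TAM and from −2.77 to −0.32 in WT TAM. All 11 had the lower mean in KO TAM, with a median difference of −1.01, and 0 passed (limma adjusted p under 0.05). Of all genes tested, 51.5% had the lower mean in KO TAM. So did 10 of 13 macrophage, 7 of 15 fibroblast, 4 of 12 tumour epithelial and 6 of 10 neutrophil markers. Of the remaining lists, 9 of 11 T cell markers and 4 of 5 mast cell markers had the higher mean in KO TAM, with median differences of 0.51 and 0.53. The mean was lower for 6 of 8 pericyte and 3 of 5 adipocyte markers, with medians of −0.06 and −0.23. The adipocyte marker Adipoq went the other way, at low means of −4.68 ± 0.26 in KO TAM and −6.45 ± 0.91 in WT TAM (SD, n = 4 each). The pericyte marker Cspg4 differed by −0.84, far from its list's median. For Adipoq and Cspg4 the groups did not overlap, as for 2.13% of all genes. The endothelial marker Vwf differed by −0.63, with groups that overlapped. In each list 0 markers passed. The part of any of these cells in the levels of the members was not tested.

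Timp3, Timp1 and Mmp3 were high where epithelial and fibroblast markers were high. With tumour epithelial markers r was 0.97 for Timp3, 0.88 for Timp1 and 0.92 for Mmp3. Without the 2 arrays farthest from the median, KO TAM sample 4 and WT TAM sample 3, it was 0.96, 0.90 and 0.90 for these genes. That check keeps their same-numbered partners, WT TAM sample 4 at a marker mean of 1.82 and KO TAM sample 3 at −0.93. It therefore cannot show how far these relations lean on numbers 3 and 4. With fibroblast markers r was 0.88 for Timp3, 0.78 for Timp1 and 0.92 for Mmp3. The relation was not particular to these lists. With pericyte and smooth muscle markers r was 0.79 for Timp3, 0.77 for Timp1 and 0.64 for Mmp3. With endothelial markers it was 0.78, 0.68 and 0.63 for these genes. With macrophage markers the same genes gave −0.94, −0.83 and −0.93. Without the samples numbered 4 those values were −0.81 for Timp3, −0.96 for Mmp3 and −0.46 for Timp1, whose relation thus leaned on these samples. Centred within slides, r with epithelial markers was 0.99 for Timp3, 0.94 for Timp1 and 0.92 for Mmp3. Slides hold 4 arrays each, too few for a value of their own.

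Mmp12, Mmp14 and Timp2 ran the other way, high where macrophage markers were high. With macrophage markers r was 0.82 for Mmp12, 0.80 for Mmp14 and 0.74 for Timp2, and 0.89, 0.69 and 0.91 for these genes without the samples numbered 4. With tumour epithelial markers it was −0.86 for Mmp12, −0.88 for Mmp14 and −0.77 for Timp2. Mmp12 and Mmp14 followed each other with r = 0.85. Timp2 stood between patterns, with r of 0.74 with Mmp12, 0.50 with Mmp14 and 0.76 with Mmp2. With neutrophil markers r was −0.70 for Timp2, against −0.16 for Mmp12 and 0.05 for Mmp14. The relation of Timp2 with fibroblast markers rested on the samples numbered 3, with r = −0.85 over 8 arrays and −0.32 without them.

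Mmp9 followed neither of these. Its r was 0.86 with 10 of 12 neutrophil markers, whose mean ran from −2.50 to 0.97 in KO TAM and from −1.97 to 0.77 in WT TAM, and 0.78 without the samples numbered 1, in which those markers were highest. It was 0.72 with 5 mast cell markers and −0.20 with macrophage markers. Of the neutrophil markers, S100a8 measured 1.67 ± 1.60 in KO TAM and 1.85 ± 1.50 in WT TAM and S100a9 3.35 ± 1.45 in KO TAM and 3.64 ± 1.28 in WT TAM (SD, n = 4 each). Mmp2 ran opposite to Mmp9 (r = −0.90) and to the neutrophil markers (−0.81), although both genes encode gelatinases. The slide took 53.8% of the sum of squares for Mmp9 and 50.3% for Mmp2. Centred within slides, r with neutrophil markers was 0.77 for Mmp9 and −0.67 for Mmp2. The relation between Mmp2 and Mmp9 was not taken within slides. Mmp13 had its strongest relation with mast cell markers (−0.71) and Mmp19 with endothelial markers (−0.62).

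**Figure D4:**
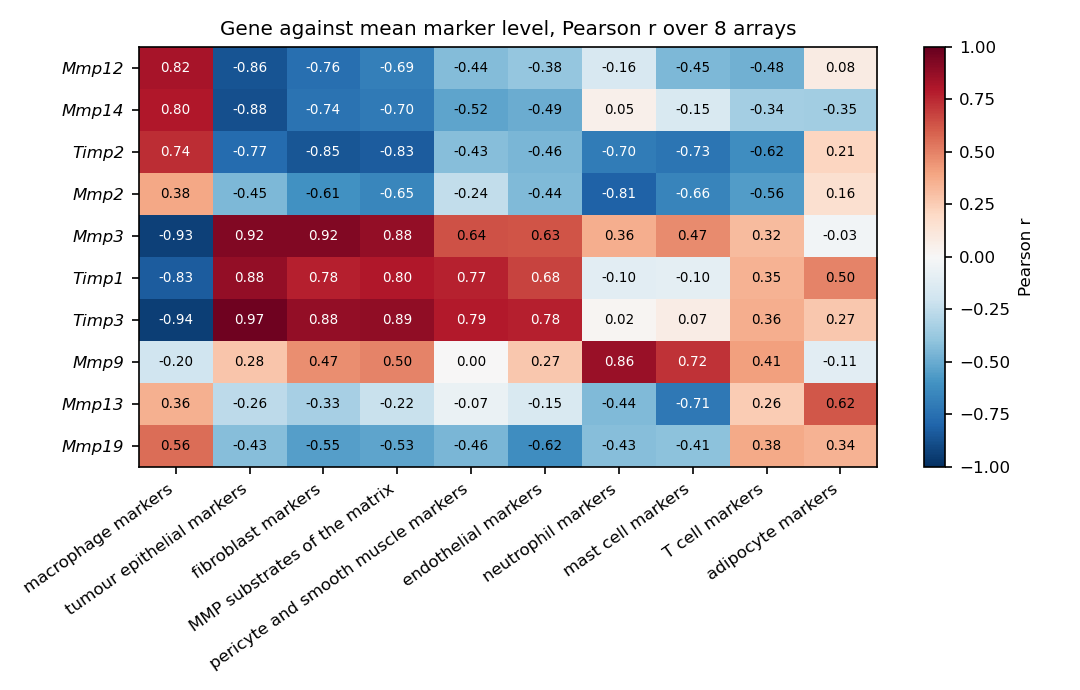
Pearson r over 8 arrays between each gene (rows) and the mean log2 level of each marker list (columns), from blue (−1) to red (1). Timp3, Timp1 and Mmp3 are red with epithelial, fibroblast and matrix genes and blue with macrophage markers, Mmp12, Mmp14 and Timp2 show the opposite colours, and Mmp9 is red with neutrophil markers.

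**Figure D5:**
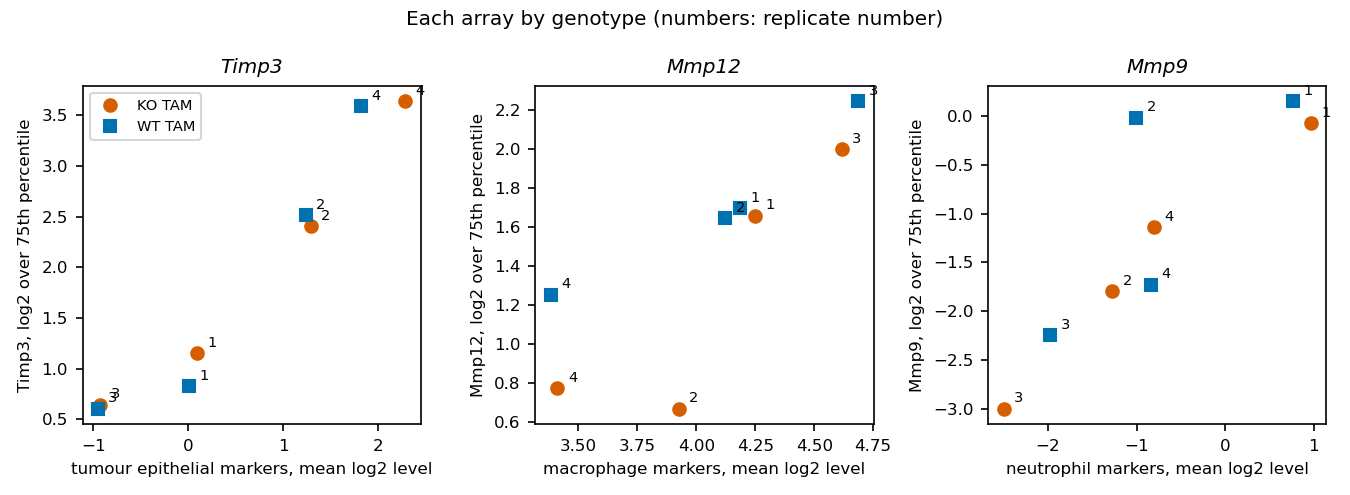
Log2 level of Timp3, Mmp12 and Mmp9 (vertical axes) against the mean log2 level of tumour epithelial, macrophage and neutrophil markers (horizontal axes) in KO TAM (orange circles) and WT TAM (blue squares), labelled by replicate number. Same-numbered samples of the 2 genotypes lie next to each other for Timp3, with the samples numbered 4 at the top and those numbered 3 at the bottom.

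The genes whose pattern over the 8 arrays was most like that of a member were looked up among 13433 genes with a symbol, as a description only. Closest to Timp3 were P3h2, Fam83a and Gng11, with r of 0.995, 0.995 and 0.994. Closest to Timp2 were Phyhd1, Nuak1 and Rragc, with r of 0.987, 0.982 and 0.981, and closest to Timp1 were Abhd14b, Irgq and Foxc2, with r of 0.980, 0.977 and 0.977. Nr4a1, an immediate early nuclear receptor gene, led the list of Mmp9 at 0.984, Usp8 that of Mmp12 at 0.991, Slc35c2 that of Mmp14 at 0.979, Mical3 that of Mmp3 at 0.982 and Bckdk that of Mmp2 at 0.979. The closest gene was less alike for Mmp13, with Rbm7 at 0.935, and for Mmp19, with Cd209a at 0.955.

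No gene of the wider protease system passed the test either. Of 18 other MMP and inhibitor genes listed, 12 could be tested, 7 with the higher and 5 with the lower mean in KO TAM, and 0 passed (limma adjusted p under 0.05), with 0 at an unadjusted p under 0.05. Mmp21 had the smallest p, at −6.49 ± 1.56 in KO TAM and −4.51 ± 2.72 in WT TAM (SD, n = 4 each), a difference of −1.98 with a standard error of 1.38. Reck, a membrane-anchored inhibitor of these enzymes, differed by 0.76 with a standard error of 0.88. Mmp10, a stromelysin, differed by −0.22 and Mmp25, a leukocyte membrane-type enzyme, by 0.42.

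Genes that activate, dock or clear these enzymes leaned lower in KO TAM without passing, 15 of 18 tested, and so did ADAM and ADAMTS genes, 10 of 12. Plau, the urokinase that starts the plasmin cascade, measured −1.61 ± 0.61 in KO TAM and −1.02 ± 0.48 in WT TAM, a difference of −0.59 (limma adjusted p = 0.9999). Lrp1, an endocytic receptor that clears TIMPs and MMPs, differed by −0.30, Plat, the tissue plasminogen activator, by −0.72 and Bsg, which encodes the inducer of MMPs called EMMPRIN, by −0.14. Among the ADAM genes Adam8 differed by −0.35, Adam17, the shedding enzyme of TNF, by −0.12, Adam12 by 0.35 and Adam19 by −0.08. Together with the other MMP genes, 30 of 42 had the lower mean in KO TAM, with a median of −0.09, against 51.5% of all genes. That count was 17 without WT TAM sample 4 and 19 without KO TAM sample 3.

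Of the matrix proteins that these enzymes cut, 13 of 19 genes tested had the lower mean in KO TAM, with a median of −0.16, and 0 passed (limma adjusted p under 0.05). Without WT TAM sample 4 the count was 3, and without KO TAM sample 3 it was 4. Fibronectin (Fn1) measured 1.16 ± 0.17 in KO TAM and 1.59 ± 0.17 in WT TAM (SD, n = 4 each), with an unadjusted p of 0.0348 and a limma adjusted p of 0.9999. For Fn1 the number took 3.49% of the sum of squares, unlike Col1a1, the main collagen I chain, at 90.4%. Col1a1 was level between genotypes, at 2.97 ± 1.04 in KO TAM and 2.97 ± 1.02 in WT TAM. Sparc, a collagen-binding matrix protein gene, differed by −0.32, Spp1, which encodes osteopontin, by −0.17 and the basement membrane collagen gene Col4a2 by −0.57.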

How the data were processed

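RNA from sorted tumour macrophages of 4 KO TAM and 4 WT TAM samples was labelled with Cy3, per the labels' protocols, and read on 1-colour Agilent arrays. Per the file headers, the authors' scanner files give background-corrected intensity per spot from Feature Extraction 10.7.1.1 (the submitters' processing notes name 10.5) and flags per spot. A deposited table of intensity values, whose scale is not stated and whose column medians were 92 to 94, followed quantile-normalized median signal (r = 0.9986 over 26919 probes) and served as an alternative.

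Control spots and outlier flags were removed, replicate spots averaged as log2, and the 75th percentile of each array subtracted. A probe was kept where the scanner flagged it above background on 4 or more of 8 arrays (27165 of 41174), and the brightest stood for its gene. Probes were named by accession through RefSeq, GRCm38.p6 (25097 matched). The genotype difference was tested two-sided with limma 3.58.1 (lmFit, eBayes; R 4.3.3), and p-values were adjusted by Benjamini-Hochberg over 20879 genes. The procedure was tested on simulated data. For the genotype test these drew each sample independently, without the pairing of same-numbered samples described below. The number of arrays limits the precision.

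For numbers 1 to 4, KO TAM and WT TAM deviations from their group mean had r of 0.30, 0.14, 0.70 and 0.51, all over 0.1. By that criterion same-numbered samples were treated as pairs, which the labels do not state. The pairs entered the pair differences and the blocked fit, not the main fit. Among samples of different number, KO TAM sample 4 with WT TAM sample 2 gave 0.15 and KO TAM sample 2 with WT TAM sample 4 gave 0.14. The criterion thus did not set number 2 apart from number 4. Over all genes the number took 64.1% of the sum of squares.

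Members and lists were chosen with earlier results of these data known. Named genes are the members, Atf3, up to 4 genes per list by smallest p, the markers Adgre1, Ptprc, Col1a1, Pdgfra, S100a8, S100a9, Cdh5, Epcam and Krt8, and up to 3 genes per member with the most similar pattern. From the cell type marker lists, the smallest-p rule was applied only to genes with an unadjusted limma p under 0.05. For Pdgfra and Cdh5 no values are printed. Alternatives were normexp on the median signal (offset 50), quantile normalization, the deposited table, no or a stricter filter, slide or number as a block, each slide, each probe and each sample left out. Promoter entries were used for 7 members, and Mmp2, Mmp9 and Mmp19 are named only.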

Additional observations from a re-analysis of the deposited data

Results flagged for a closer look

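The samples numbered 3 stood apart for Timp2 within both genotypes. KO TAM sample 3 measured 4.06 on the log2 scale over the 75th percentile, the next highest KO TAM sample 3.16, and WT TAM sample 3 measured 4.40, the next highest WT TAM sample 3.26. In each case the gap to the nearest sample, divided by the group's range, was above the 95% critical value of Dixon's test for 4 samples, at 0.925 in KO TAM and 0.959 in WT TAM. Of 26 groups examined, over 13 probes, these 2 met that rule, and chance flags about 1 in 20. In the same samples the mean of the macrophage markers was the highest of each genotype, 4.62 in KO TAM and 4.69 in WT TAM, and whether this bears on Timp2 was not tested.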

How the results depend on the processing

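Of 172 re-computed differences of the 10 genes, 156 kept their sign, 16 reversed and 0 passed (limma adjusted p 0.70 to 1.00). The 156 include settings that could not move a difference. With no or a stricter filter the same probes were read, and a block by slide or number is balanced between genotypes. Reversed were Mmp19 with normexp (−0.57) and on slide 2 (−0.36) and Timp1 on slide 2 (−0.090). Leaving out each sample gave differences from −0.14 to 0.38 for Mmp13, −0.35 to 0.034 for Mmp14, −0.094 to 1.02 for Mmp3, −0.23 to 0.29 for Timp1, −0.42 to 0.11 for Timp2 and −0.48 to 0.65 for Timp3, and with no change of sign −1.02 to −0.043 for Mmp9, −0.68 to −0.23 for Mmp12, 0.044 to 0.36 for Mmp2 and 0.12 to 0.94 for Mmp19. These ranges hold for the 1 probe per gene of the main fit. By the Mmp9 probe printed in 10 spots, the sign did turn without KO TAM sample 3 or WT TAM sample 1. Members lower in KO TAM numbered 4 to 7, other protease system genes 17 to 35 and matrix genes 3 to 18. Over all genes, 0 were called in every setting except 1 gene without KO TAM sample 1. Unadjusted p under 0.05 was met by 701 genes, 406 with normexp and 1580 with the replicate number as a block. With that block 0 genes were called, the members' differences stayed as they were, the limma adjusted p of Mmp12 was 0.70, and no call changed. Normexp moved the median difference of all genes to −0.14, with 8030 genes higher and 12849 lower in KO TAM. Relative to it Mmp14 (0.13) and Timp2 (0.06) changed sign, although their own values (−0.010 and −0.081) did not. The F test of the number called 3 members in the deposited table, where 10.6% of all genes were called, and 3 with the stricter filter, which leaves Mmp19 out, where 15.7% were called, and 0 to 1 with a sample left out, where fewer arrays remain. With normexp, r with macrophage markers was −0.55 for Timp1 and −0.71 for Timp3. The cause of the other shifts was not tested. Dim spots limit Mmp19, which was well above background on 4 of 4 KO TAM and 3 of 4 WT TAM arrays.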
